A study of Equus caballus with 11 samples.

Results

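Of 68147 CpG sites that reduced representation bisulfite sequencing (RRBS) covered in every library, 1657 (2.43%) were clearly less methylated in horse liver than in heart and lung, which stayed close to each other. They were chosen by their methylation level alone, that is, the percent of reads in which bisulfite left the cytosine as C. Sites on chromosomes 1 to 31 entered with at least 10 reads in all 11 libraries after the strands of a CpG were combined. A site was kept when the unweighted liver mean lay 20 or more points below both the heart mean and the lung mean, when heart and lung differed by under 15 points, and when the highest liver library was below the lowest heart or lung library. These liver-hypomethylated CpGs are the subject below, and their levels in the libraries that chose them are a description, with no test.

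The libraries came from the left ventricle of the heart (4 libraries), the caudal lobe of the right lung (4) and the right lobe of the liver (3) of 4 healthy, young cold-blooded stallions. Horses 1, 2 and 4 gave all tissues and horse 3 gave heart and lung, while liver of horse 3 was not analysed here. Each library was made from a piece of whole tissue, so a level averages over all its cell types, and at an intermediate level a share of unmethylated cells cannot be told apart from partial methylation in each cell. The shallowest library, liver of horse 2, held 3255257 reads at CpG positions of chromosomes 1 to 31 and the deepest, liver of horse 1, 25109840, with median depths at the common sites of 15 and 50 reads. Every library correlated best with another library of its own tissue (11 of 11), but the labels were not checked against marker genes, because sites were not assigned to genes here.

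In mammals, methyl groups on CpG cytosines are copied at each cell division by maintenance methyltransferases, and most CpGs outside dense CpG islands are methylated in most tissues. Loss of methylation in one tissue is best known at distal regulatory elements that its transcription factors occupy. In liver, hepatocyte factors such as the HNF and FOXA proteins are known to act at such elements. RRBS reads fragments cut at CCGG, so it sees the CpG-rich part of the genome and only some of the elements between islands.

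The liver-hypomethylated CpGs were highly methylated in heart and lung and partly methylated in liver. Their mean level was 79.5%, 80.1%, 80.9% and 80.7% in heart of horses 1 to 4, and 78.5%, 78.7%, 79.3% and 78.4% in lung of the same horses. In liver it was 45.4% in horse 1, 39.0% in horse 2 and 39.2% in horse 4. Liver of horse 1 was thus the highest of the liver libraries and still far below the others. Averaged over libraries, heart was at 80.3% ± 0.638 (SD over 4 libraries), lung at 78.7% ± 0.397 (4 libraries) and liver at 41.2% ± 3.64 (3 libraries).

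**Figure D1:**
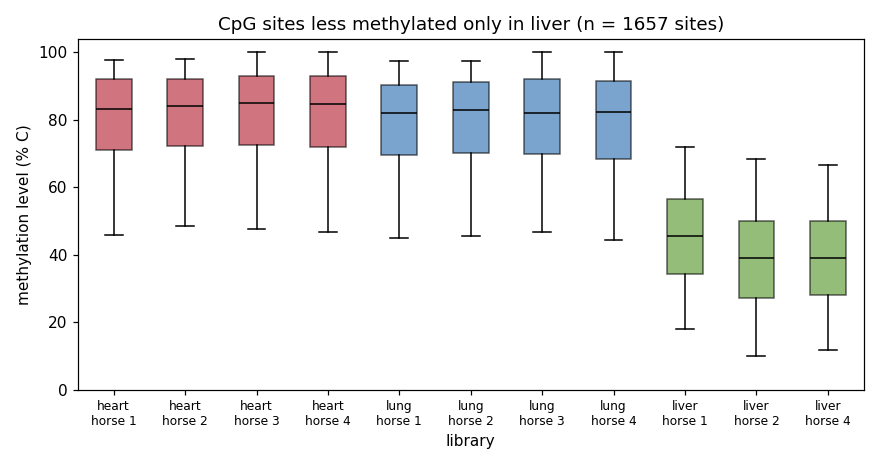
Methylation level (percent C, vertical axis) of the 1657 liver-hypomethylated CpGs in each of the 11 libraries (horizontal axis). Boxes span the quartiles with the median as a line and whiskers run from the 5th to the 95th percentile of sites. The medians lie between 82.1% and 85.0% in heart and lung and between 38.9% and 45.5% in liver.

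A site could only be chosen where heart and lung were both at 20% or more and within 15 points of each other, and 50474 common sites met this. The liver-hypomethylated CpGs made up 3.28% of them. At the other sites of this kind, liver stood at 82.2% ± 0.714, heart at 81.4% ± 0.600 and lung at 81.7% ± 0.597. The liver libraries were thus not lower in general. Over all common sites the liver libraries averaged 68.9% ± 0.745, next to 68.5% ± 0.554 in heart and 69.2% ± 0.291 in lung.

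Complete loss of methylation was rare among these CpGs. The liver mean was under 20% at 141 of them (8.51%), between 20% and 40% at 602 (36.3%), between 40% and 60% at 747 (45.1%) and at 60% or more at 167 (10.1%). All 3 liver libraries lay between 20% and 80% at 1272 sites (76.8%), and all were at or below 10% at only 12. Intermediate levels were thus the rule in liver. In heart and lung, by contrast, both means were at 80% or more at 817 sites (49.3%) and both were under 50% at 65 (3.92%).

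The 10 sites with the lowest liver means had heart and lung means of at most 42.4%. At position 77836559 of chromosome 17 liver stood at 0.680%, heart at 33.4% and lung at 26.0%. At position 172934755 of chromosome 1 the levels were 1.01%, 36.7% and 33.3%. These sites were singled out after their values were seen, and they differ from most of the set, which was highly methylated in heart and lung. Coordinates are 1-based positions of the forward-strand cytosine in EquCab3.0.

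The distance from liver to the nearer of the other tissues had a median of 33.8 points (quartiles 26.8 and 42.9) and reached 68.5 points. It was at least 30 points at 1052 sites, at least 40 at 554, at least 50 at 178 and at least 60 at 21. Just inside the limit of 20 points, a site on chromosome 5 at 23612754 had liver at 72.5%, heart at 92.5% and lung at 95.2%. Just outside it, a site on chromosome 26 at 29807853 had liver at 14.9%, heart at 45.3% and lung at 34.9%. With the other conditions met, 314 sites lay between 20 and 25 points and 314 between 15 and 20, so the limit cut through a continuous range.

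Heart and lung were close to each other by rule. Heart was above lung at 981 sites (59.2%), and heart minus lung had a median of 1.57 points over the 1657 CpGs. Over the 50474 sites that could be chosen, that median was -0.244 points. Within the horses that gave all tissues, liver was below heart by 34.1 points in horse 1, 41.1 in horse 2 and 41.5 in horse 4 on average (liver minus heart: -34.1, -41.1 and -41.5). Against lung the same differences were -33.0, -39.6 and -39.2 points. These libraries chose the sites and the rule set liver below the rest in every horse, so only the sizes are a description, smallest in horse 1.

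Liver libraries also varied more among themselves at these sites than elsewhere. The SD between the 3 liver libraries had a median of 8.98 points at a liver-hypomethylated CpG and of 5.33 at the other sites open to the rule. In heart the medians were 5.79 and 5.26, and in lung 6.60 and 5.61. Sites near the middle of the scale also carry more counting error than sites near 100%, and its part in this spread was not tested. Liver of horse 1 was the highest liver library at 856 sites (51.7%) and the lowest at 241 (14.5%), while at the other sites open to the rule it was the lowest at 29.9%. The liver library of horse 2, with the fewest reads, was the lowest at 752 (45.4%), against 38.8% at the other open sites. That of horse 4 was the lowest at 664 (40.1%), against 31.3%.

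To see the difference in libraries that had no part in the choice, the rule was applied without any library of one horse, and the levels were then read in that horse. Without horse 1 the rule chose 2147 sites, and in horse 1 these stood at 77.5% in heart, 77.0% in lung and 50.7% in liver. Without horse 2 it chose 1783 sites, at 78.4%, 76.9% and 42.4% in horse 2. Without horse 4 it chose 1841 sites, at 79.0%, 77.1% and 43.9% in horse 4. Liver was below both other tissues of the same horse at 87.5%, 93.9% and 91.6% of the chosen sites in horses 1, 2 and 4, and at 27.3%, 37.9% and 31.3% of the other sites open to the rule.

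The difference was smaller in the horse left out than in the horses used. Liver was 20 points or more below both tissues, the limit of the rule, at 52.4% of the chosen sites in horse 1, 70.1% in horse 2 and 68.1% in horse 4, against 0.962%, 4.42% and 2.59% of the other open sites. Liver minus the mean of heart and lung was -26.6, -35.3 and -34.2 points in horses 1, 2 and 4, which averages -32.0 ± 4.74 (SD, n = 3 horses). In the libraries that chose the sites, the liver mean minus the mean of all heart and lung libraries was -37.8, -37.4 and -36.6 points. That value is not paired by horse and includes heart and lung of horse 3, so the comparison of sizes is a rough one. The difference in the horse left out fell short of it most in horse 1. At the other sites open to the rule it was 1.78, -0.605 and 0.666 points. All 3 horses showed the direction, but an exact sign-flip test over 3 horses cannot give a p below 0.25, so none was run.

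**Figure D2:**
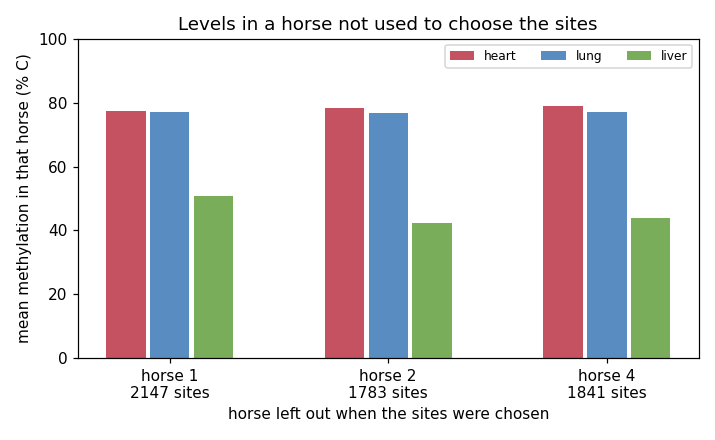
Mean methylation (percent C, vertical axis) in heart, lung and liver of a horse whose libraries took no part in choosing the sites (horizontal axis: the horse left out and the number of sites chosen without it). Bars are means over sites in 1 library each. Liver stands at 50.7% in horse 1, 42.4% in horse 2 and 43.9% in horse 4, and heart and lung between 76.9% and 79.0%.

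For reference, sites were also tested across the whole table in the comparisons that the study made, heart against liver and lung against liver, by a moderated quasi-likelihood test on read counts (adjusted p below 0.01 and at least 25 points). In either direction, 5.98% and 3.96% of all sites were called. Among the liver-hypomethylated CpGs, 1249 were called lower in liver than in heart, where 3.03% of all 68147 sites were, and 1092 were called lower in liver than in lung, against 2.32% of all sites. Both calls were made at 991 of them, with 1.68% of all sites as the background. The rule used the same contrasts and required separate libraries, which 4.36% of all sites showed in this direction, so nothing is read from these counts. Without liver of horse 1 the total of called sites in either direction fell from 4074 to 2542 for heart against liver and from 2699 to 1697 for lung against liver, of which 1605 and 1176 were lower in liver.

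Many of the liver-hypomethylated CpGs lay next to each other. Sites no more than 200 bp apart were joined into 1161 groups, of which 817 were single sites, 241 were pairs and 103 were clusters of 3 or more. The clusters held 358 sites (21.6%, Wilson 95% interval 19.7% to 23.7%, counting sites as independent). Their median length was 45 bp, and only 7 were longer than a read of 75 bp. CpGs in 1 cluster are therefore mostly read on the same molecules and are not replicates of each other. Of the 817 single sites, 519 (63.5%) had no other site open to the rule within 200 bp, and could not have joined a group.

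Within the span of the 103 clusters, 358 of 376 common sites met the rule, and in 88 clusters every common site did. A span starts and ends at a chosen site and holds at least 3 of them. The high share is thus in part fixed by the definition of a cluster. The liver level was similar along a group and differed between groups. Among the 344 groups with at least 2 sites, the liver means of a group spanned a median of 7.29 points. Their SD was 7.82 points within groups and 12.5 points between group means. Sites of a group can share reads, and the part of this in the contrast was not tested. The clusters had liver means from 10.4% to 66.4%, with 7 clusters under 20%, 46 from 20% to 40%, 47 from 40% to 60% and 3 above.

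The largest cluster lay on chromosome 2 from 27140280 to 27140730, with 11 liver-hypomethylated CpGs among 15 common sites. Over these 11, heart stood at 94.8%, 95.6%, 95.04% and 96.0% in horses 1 to 4, and lung at 97.0%, 97.3%, 96.7% and 97.5%. Liver stood at 46.9% in horse 1, 38.3% in horse 2 and 44.0% in horse 4. The tissues were almost fully methylated except for liver, which was near the middle of the scale in each horse. Each library held at least 166 read counts summed over the 11 sites, the fewest in liver of horse 2. CpGs on the same read count that read more than once, so this sum is not a number of molecules.

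The same cluster showed how short the change could be. The 4 remaining CpGs, from 27140328 to 27140345, sit between its first and its second hypomethylated site. There liver was at 82.9%, 55.0% and 94.9% in horses 1, 2 and 4, and heart and lung were between 93.2% and 98.1%. Liver of horses 1 and 4 was thus nearer to the other tissues within 100 bp of a site where it was far below them. The value of horse 2 rests on 40 read counts over the 4 CpGs, against 164 in horse 1 and 119 in horse 4.

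**Figure D3:**
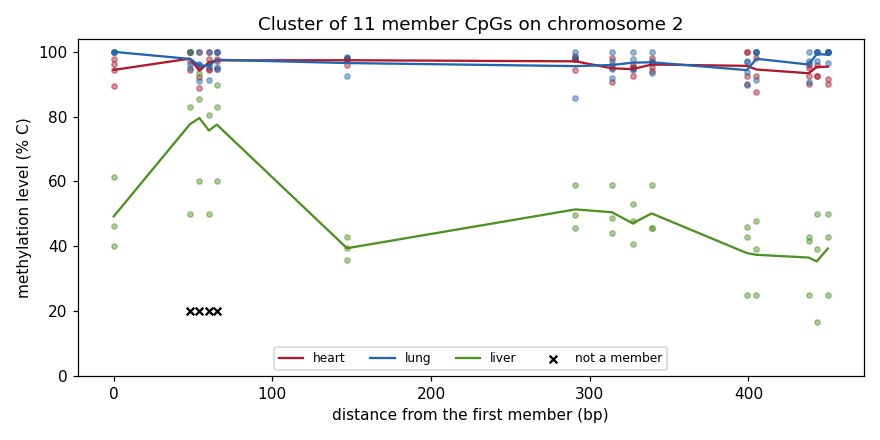
Methylation level (percent C, vertical axis) at the 15 common CpGs of the cluster on chromosome 2, by distance from its first site in bp (horizontal axis). Points are libraries, lines are tissue means, and crosses, drawn at one arbitrary height, mark the 4 CpGs that did not meet the rule. Heart and lung stay above 90% on average while liver lies between 35.3% and 51.4% at the 11 hypomethylated sites and between 75.7% and 79.6% at the others.

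On chromosome 9, 2 clusters lay 242 bp apart. The first, from 30139885 to 30139969, held 4 CpGs at 78.9% ± 1.53 in heart, 79.4% ± 1.54 in lung and 35.3% ± 4.33 in liver, where the libraries read 39.9%, 31.2% and 34.9% in horses 1, 2 and 4. The second, from 30140211 to 30140373, held 5 CpGs at 84.3% ± 2.04, 84.3% ± 0.583 and 43.1% ± 1.83. Its liver libraries read 45.2%, 41.9% and 42.1%, within a range of a few points. Each library held at least 225 read counts in the first and 354 in the second, which makes this the best-covered stretch among those described.

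Several clusters showed a deep and even drop in liver. On chromosome 2 from 56498697 to 56498730, 4 CpGs stood at 33.5%, 29.2% and 26.7% in liver of horses 1, 2 and 4, while heart ran from 87.0% to 93.8% and lung from 87.8% to 92.2%. On chromosome 30 from 28920323 to 28920365, 5 CpGs stood at 36.6%, 31.4% and 30.97% in liver, with heart from 95.6% to 98% and lung from 82.6% to 95.6%. On chromosome 7 from 51020927 to 51020953, 4 CpGs stood at 42.5%, 37.5% and 40.2% in liver, with heart from 86.6% to 98.4% and lung from 87.5% to 93.9%. In these clusters the gap between the highest liver library and the lowest other library was 53.6, 46.0 and 44.1 points, far more than the range of the liver libraries.

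In other clusters the livers of different horses stood far apart. On chromosome 31 from 892139 to 892200, 6 CpGs were at 21.8%, 44.6% and 63.5% in liver of horses 1, 2 and 4, against 91.7% to 99.1% in heart and 86.4% to 97.9% in lung. On chromosome 11 from 59587258 to 59587323, 4 CpGs were at 61.3%, 44.1% and 22.8% in liver, with heart at 87.5% to 92.9% and lung at 88.8% to 95.9%. The order of the horses was opposite in these clusters. On chromosome 29 from 7256616 to 7256637, 5 CpGs were at 39.7%, 28.6% and 52.1% in liver, with heart at 85.6% to 91.8% and lung at 84.0% to 94.4%. All of these are below heart and lung, but with 3 livers the level itself is uncertain there.

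The remaining clusters with the most sites repeated the same form. On chromosome 9 from 7595772 to 7595821 and on chromosome 6 from 74553292 to 74553336, 5 CpGs each were at 45.9% ± 8.89 and 48.4% ± 6.08 in liver and between 90.5% and 93.5% in heart and lung. On chromosome 15 from 69354000 to 69354044 and on chromosome 20 from 8148930 to 8148979, liver was higher, at 55.4% ± 6.501 and 55.8% ± 8.12. Heart and lung stood at 96.0% and 96.4% in the former and at 87.3% and 83.8% in the latter. The gap between the highest liver library and the lowest other library was narrowest on chromosome 20 among the 15 clusters with the most sites, at 15.6 points.

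Among the clusters of 4 CpGs, liver was at 36.8% ± 7.20 on chromosome 4 from 5596266 to 5596322 and at 39.0% ± 9.87 on chromosome 13 from 9989547 to 9989601. Heart and lung were between 87.9% and 94.99% there. On chromosome 19 from 684900 to 684914, liver was at 24.6% ± 8.80, heart at 76.0% ± 6.44 and lung at 77.4% ± 16.2. Lung of horse 4 was the low one there, at 53.8%, against 82.0% or more in the other lungs. Summed over its CpGs, the shallowest library held 52 read counts here and 43 in the cluster on chromosome 11 described above, and at least 60 in the other clusters of the 15.

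**Figure D4:**
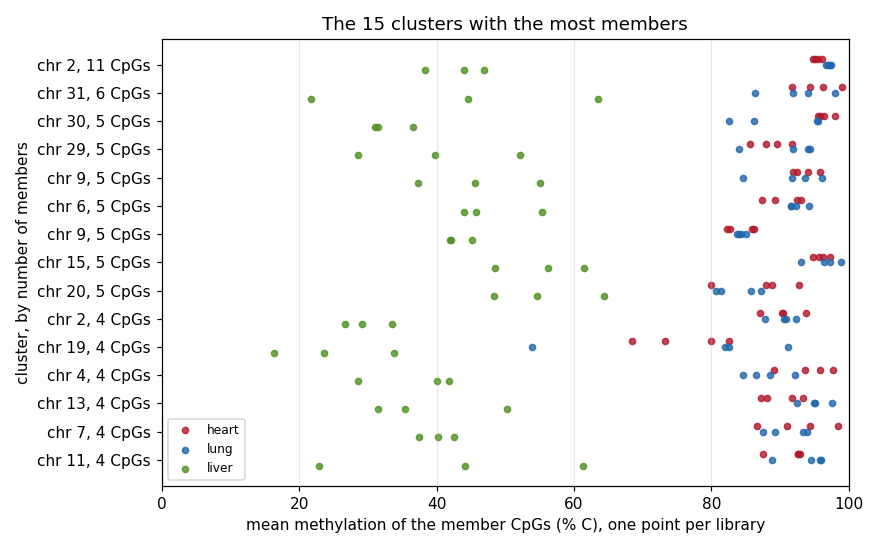
Mean methylation of the hypomethylated CpGs (percent C, horizontal axis) in each library, as one point, for the 15 clusters with the most sites (vertical axis, by chromosome and number of CpGs). All liver points lie below all heart and lung points of the same cluster, which the rule requires at each site. The liver points run from 21.8% to 63.5% on chromosome 31 and from 41.9% to 45.2% in the cluster on chromosome 9 with 84.3% in heart.

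Clusters with liver near the unmethylated end, named after their values were seen, had heart means from 42.4% to 74.1% in the 7 clusters under 20%. On chromosome 21 from 50591723 to 50591766, 3 CpGs were at 10.4%, 13.3% and 7.58% in liver of horses 1, 2 and 4, against 45.8% ± 8.39 in heart and 44.8% ± 3.10 in lung. On chromosome 11 from 12385055 to 12385080 liver was at 13.9%, 20.5% and 8.94%, heart at 62.1% ± 11.5 and lung at 58.5% ± 9.96. On chromosome 3 from 27580450 to 27580504 it was at 15.4%, 17.8% and 14.3%, with heart at 74.1% ± 14.1 and lung at 72.1% ± 10.8. Read counts were low at these places, at least 45, 39 and 33 per library and cluster. The liver libraries were nevertheless close together on chromosome 3, where heart alone ran from 66.7% to 95.2%.

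Outside the clusters named above, the sites with the widest gap between liver and other libraries often lay next to each other. On chromosome 22, 3 CpGs from 34517983 to 34518009 formed a smaller cluster, at 28.6% ± 7.17 in liver, 89.7% ± 1.15 in heart and 90.04% ± 4.08 in lung. At its sites 34518007 and 34518009, liver was at 31.6% ± 8.18 and 30.8% ± 6.71, heart at 96.1% and 98.1% and lung at 97.7% and 98.4%. At 34518009 the counts of methylated reads in liver were 15 of 39 in horse 1, 5 of 18 in horse 2 and 6 of 23 in horse 4, with Wilson 95% intervals of 24.9% to 54.1%, 12.5% to 50.9% and 12.5% to 46.5%. On chromosome 18, the pair at 42727637 and 42727657 was at 30.8% ± 2.80 and 29.1% ± 3.74 in liver. The sites at 18472605 and 18472622 were at 35.5% ± 7.17 and 35.9% ± 5.47, in a cluster of 3 CpGs from 18472576 to 18472622 that stood at 36.3% ± 4.26 in liver, 96.9% ± 0.519 in heart and 96.1% ± 2.75 in lung. Heart and lung were at 86.8% or more at these 4 sites on chromosome 18.

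The other sites of this kind lay on chromosomes 5, 11, 1 and 10. At 93883823 on chromosome 5 liver was at 16.7%, 14.3% and 26.7% in horses 1, 2 and 4, heart at 87.7% ± 8.75 and lung at 87.9% ± 4.95. This was the largest distance between liver and the nearer tissue in the whole set, 68.5 points. Position 5807606 on chromosome 11 was at 30.7% ± 10.8 in liver, 76452291 on chromosome 1 at 26.8% ± 4.10 and 28409295 on chromosome 10 at 28.8% ± 2.31, all with heart and lung between 85.8% and 93.7%. Of the 10 sites with the widest gap, 9 had another liver-hypomethylated CpG within 37 bp, and the one on chromosome 11 had none nearer than 134942 bp. Single libraries held 11 reads at some of these sites, and intervals cover counting error only, since reads without molecular identifiers can be PCR copies.

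Lower methylation in liver faded within 1000 bp of the chosen CpGs. Sites open to the rule but not chosen stood at 62.6% ± 2.10 in liver, 77.3% ± 0.924 in heart and 77.0% ± 0.624 in lung when they were 1 to 50 bp away (469 sites). From 51 to 200 bp the levels were 70.5% ± 2.37, 79.1% ± 0.567 and 79.4% ± 1.04 (171 sites). From 201 to 1000 bp they were 83.6% ± 0.782, 85.2% ± 0.437 and 85.0% ± 0.575 (169 sites), and from 1001 to 10000 bp liver was no longer the lowest, at 85.7% ± 0.650 against 85.3% in heart and lung (1249 sites). At the nearest sites liver was below both tissues at 86.6%, and beyond 10000 bp at 33.5%. All of these neighbours missed the rule, and the nearest ones can share reads with the chosen sites, so the profile is a description.

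**Figure D5:**
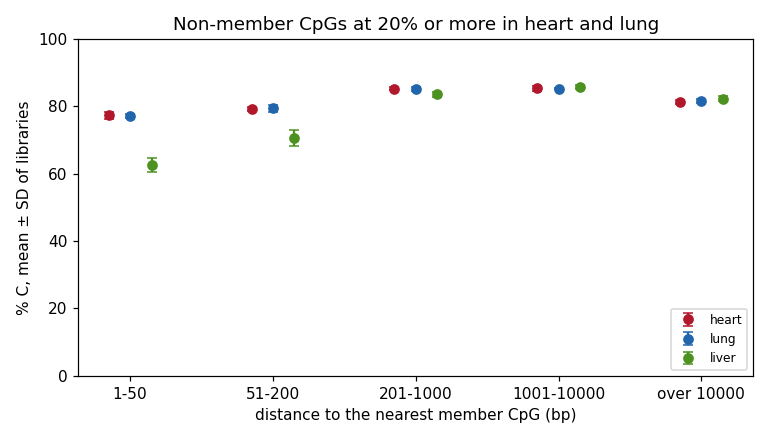
Methylation (percent C, vertical axis) in heart, lung and liver at CpGs that were open to the rule but not chosen, by distance to the nearest liver-hypomethylated CpG in bp (horizontal axis). Points are means of the libraries and bars their SD (n = 4, 4 and 3). Liver rises from 62.6% within 50 bp to 83.6% at 201 to 1000 bp, next to 85.2% in heart and 85.0% in lung.

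The open sites can also be counted by the share that was chosen at each distance. Of the sites open to the rule that had a liver-hypomethylated CpG within 1 to 50 bp, 61.0% (733 of 1202) were liver-hypomethylated. The share was 38.5% at 51 to 200 bp (107 of 278), 5.06% at 201 to 1000 bp (9 of 178), 1.96% at 1001 to 10000 bp (25 of 1274) and 1.65% beyond (783 of 47542). Sites close to each other were thus often chosen together, and past 200 bp the share was far lower. The sites not chosen here are those of the profile above, so this is not a separate observation. Sites close together can share reads, and the part of this in the shares was not tested.

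The liver-hypomethylated CpGs lay where CpGs were sparse. The density was counted as the number of other CpGs listed in any library within 100 bp, a count that depends on coverage and misses CpGs that RRBS did not reach. Its median was 2 for these CpGs (quartiles 1 and 4), the same median as for all sites open to the rule (quartiles 1 and 5), and the difference lay in the dense tail. With 0 to 4 such CpGs around them, 1399 of 35823 open sites (3.91%) were liver-hypomethylated, and with 5 to 9, 239 of 8859 (2.70%). With 10 to 14 it was 16 of 4154 (0.385%), and with 15 or more 3 of 1638 (0.183%). The 3 sites in the densest class were on chromosome 1, at 90242561, 124104400 and 124104402.

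At 90242561 on chromosome 1 liver was at 69.8%, heart at 94.0% and lung at 93.8%, and at 124104400 on the same chromosome liver was at 48.5%, heart at 92.4% and lung at 100%. Levels were not lower in the denser classes. Liver averaged 40.9% in the sparsest class, 42.1% with 5 to 9 CpGs and 48.3% with 10 to 14, and heart 80.1%, 80.8% and 87.96%, the last over only 16 sites. A common site at or below 20% in all 11 libraries lay within 1000 bp of 26 liver-hypomethylated CpGs (1.57%) and of 1243 sites open to the rule (2.46%). For CpGs less methylated only in heart or only in lung the shares were lower, at 0.447% and 0.531%. For those more methylated only in liver, only in heart or only in lung they were 3.85%, 3.93% and 2.89%.

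The sites were spread over all 31 chromosomes, and their clusters over 26. The share of open sites that were liver-hypomethylated had a median of 3.38% over chromosomes and ran from 1.95% on chromosome 21 (21 of 1078) to 7.47% on chromosome 30 (44 of 589). The 44 sites of chromosome 30 fell into 26 groups, so they did not come from 1 or 2 clusters alone. Chromosome 11 followed with 4.63% (71 of 1532, in 50 groups). Sites of a cluster are not independent, and no test of chromosomes was made.

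Beside these CpGs, the same rule with the signs turned found 779 CpGs more methylated only in liver. The liver-hypomethylated set was the larger on 29 of 31 chromosomes. Applied to the other tissues, the rule found 1118 CpGs less and 331 more methylated only in heart, and 565 less and 242 more methylated only in lung. Loss was thus counted more often than gain for each tissue under this rule. A gain needs 20 points of room above both other tissues, and sites with that room were not counted. Open sites that were not chosen had medians of 86.4% to 88.5% in the heart and lung libraries, which limits that room. Counts of loss and gain, also by chromosome, are therefore not on one footing. The rule needs 3 liver libraries but 4 heart or 4 lung libraries to stand apart, so neither are the counts of different tissues. Partial levels were shared by the other sets, since CpGs less methylated only in heart had 44.3% to 46.1% in the heart libraries and those less methylated only in lung had 48.3% to 49.99% in the lung libraries.

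Clusters of 3 or more held 21.6% of the liver-hypomethylated CpGs, 19.5% of those more methylated only in liver, 17.2% and 13.6% of those less and more methylated only in heart, and 12.9% and 9.92% of those less and more methylated only in lung. Positions with 0 to 4 CpGs around them made up 84.4% of the liver-hypomethylated CpGs, 73.9% of those more methylated only in liver, 80.2% and 79.5% of those less and more methylated only in heart, and 81.4% and 78.5% of those less and more methylated only in lung, beside 71.0% of all open sites. These shares are descriptions of sites that partly share reads, and their differences were not tested.

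At the CpGs more methylated only in liver, the liver of horse 1 did not stand apart as it did at the liver-hypomethylated ones. Its mean was 67.9% there, next to 69.6% in horse 2 and 68.1% in horse 4. At the liver-hypomethylated CpGs it was 45.4% against 39.0% and 39.2%. It was also the highest at CpGs more methylated only in heart (41.1% against 35.4% and 36.7%) and only in lung (39.9% against 34.05% and 35.85%). At CpGs less methylated only in heart or only in lung it was not the highest, at 77.9% and 78.7%. The higher level in liver of horse 1 was thus not particular to the liver-hypomethylated CpGs. Liver of horse 1 was also the highest liver library in 54 of the 103 clusters.

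Read depth at these sites, which the rule used only as a minimum, was compared between liver and the other tissues, with too few libraries for a decision. The median depth at the liver-hypomethylated CpGs was between 0.917 and 0.960 of the library's median over all common sites in each of the 11 libraries. Liver averaged 0.943 ± 0.0148 (n = 3), heart 0.939 ± 0.0131 (n = 4) and lung 0.930 ± 0.0129 (n = 4). The difference of liver minus heart was 0.00399 (exact 2-sided permutation p = 0.743, also after Benjamini-Hochberg adjustment over 2 tests) and that of liver minus lung 0.0129 (exact permutation p = 0.286, adjusted 0.571). The smallest p that 3 against 4 libraries allow is 0.0571, so these tests could not have passed a threshold of 0.05.

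Only 12 of the 1657 CpGs were read on both strands at 10 or more reads per strand in every library. Over these, heart was at 79.4% on the forward and 80.1% on the reverse strand, lung at 74.4% and 75.8%, and liver at 44.4% and 39.6%. The strands of liver differed by 4.79 points on average with an SD of 14.5 over the 12 sites. Cytosines of mitochondrial CpGs, read as a check of bisulfite conversion, were C in 0.336% to 0.373% of reads in heart, 0.613% to 1.69% in lung and 0.904% to 1.20% in liver, without overlap between heart and the other tissues. Lung and liver were both above heart in this measure, and its part in the levels was not tested. Heart libraries held 346982 to 659656 of these reads each, and lung and liver libraries 21245 to 77521. Whether the percentages depend on these numbers of reads was not tested.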

How the data were processed

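The authors filtered RRBS reads, mapped them to EquCab3.0 and called CpG methylation from uniquely mapped reads. The submitters' processing notes list BSMAP and FastQC without versions. Each deposited file lists CpG positions by strand with a read count (coverage, at least 5) and the percent of C and of T. Methylated reads were recovered as coverage times percent C, rounded, and strands were combined. Recovered counts gave back the deposited percent within rounding at 99.8% or more of positions in each library.

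The members and lists were chosen with earlier results of these data known. Named were the 15 clusters with the most members, ties going to the larger distance of liver from the nearer tissue, and the 10 other members with the widest gap between libraries. Heart against liver and lung against liver were tested by logistic regression on methylated and unmethylated reads, without a term other than tissue, a Pearson dispersion moderated with squeezeVar of limma 3.58.1 (pooled levels from 2% to 98%) and kept at 1 or above, and quasi-likelihood F statistics whose p-values were adjusted (Benjamini-Hochberg) over 68147 sites. Alternatives were the read minimum, the limits of the rule, strands, weighting, dispersion, horse as a block, and each library left out. Libraries with the same number are from the same horse per the labels and are pairs, and deviations from tissue means correlated at 0.0519 to 0.185 (heart with liver) and 0.190 to 0.223 (lung with liver) within a horse, and at most 0.0595 between horses. Libraries of a tissue differed by more than sampling noise in all 15 pairs (chi-square per degree of freedom 1.59 to 2.77). The p-values behind the calls rest on a spread between libraries that was largely pooled over sites. Its prior degrees of freedom were 15.4 (heart against liver) and 21.4 (lung against liver), beside 5 residual ones. Tissues of a horse were taken as independent there and in the permutation tests of depth. Sites were not assigned to genes and a planned list of liver genes was not used, because the gene table used here is of another assembly. No sequence was printed for the same reason. Python 3.11.15 with numpy 2.4.6, scipy 1.17.1, pandas 2.3.3 and matplotlib 3.10.9, and R 4.3.3, were used.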

Additional observations from a re-analysis of the deposited data

Results flagged for a closer look

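In 4 of 58 groups of 4 heart or lung libraries, a single library stood apart from the rest by Dixon's criterion (critical value 0.829). Chance flags about 1 in 20 where values are independent and normally spread. Levels here end at 100% and sites close together can share reads, so 4 of 58 is not judged against that rate. In the cluster on chromosome 11 from 59587258 to 59587323, heart of horse 3 was at 87.5% and the other hearts at 92.5% to 92.9%. On chromosome 18, heart of horse 4 was at 84.8% at 42727637 (28 of 33 reads), with the other hearts at 96.9% to 98.5%. At 42727657 heart of horse 3 was at 90.6% (29 of 32 reads), with the others at 93.8% to 93.9%. At 34518009 on chromosome 22, lung of horse 4 was at 93.8% (15 of 16 reads) and the other lungs at 100%. In each case the library that stood apart was still far above the liver libraries.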

How the results depend on the processing

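The number of liver-hypomethylated CpGs rose and fell with the number of sites that entered, and their share of these sites changed too. With a minimum of 5 reads there were 4836 among 218903 common sites (2.21%). With 20 reads there were 234 among 13624 (1.72%), next to 1657 among 68147 (2.43%) with the minimum used above. With 5 and 20 reads, the called sites numbered 11525 and 563 for heart against liver and 6902 and 418 for lung against liver. The number of sites tested also differed between these settings, and its part in the counts of calls was not tested. A limit of 30 points gave 1052 CpGs, by construction fewer, and a mean difference of -39.5 points in the horse left out. Within 50 bp, 24.2% of the CpGs reached the upper quartile of density of the open sites, against 34.6% of those sites (15.6% and 29.0% within 100 bp). Leaving out each library gave 1673 to 2089 CpGs, of which 1521 to 1624 were among the 1657. It gave 2542 to 3992 called sites for heart against liver and 1697 to 2717 for lung against liver, both lowest without liver of horse 1, where the share lower in liver rose from 50.7% to 63.1% and from 58.6% to 69.3%. With horse as a block (paired by horse, without horse 3), 4732 and 3381 sites were called, but with 2 residual degrees of freedom this fit gave every site 1 shared dispersion, so these counts do not bear on the 4074 and 2699 without the block. Paired by horse, the depth ratio of liver minus heart turned to -0.000346 (exact sign flips, p = 1, where 3 horses allow no p below 0.25). That ratio ran from -0.00454 to 0.00985 with each library left out, below 0 without heart of horse 3 or liver of horse 1, and the one against lung from 0.00436 to 0.0187, so no direction of depth is claimed. Taken as the share of a library's reads, liver minus heart was 0.0293 percentage points (exact permutation p = 0.743) and liver minus lung 0.129 (p = 0.171), in another unit than the ratio. The other alternatives for the counts of CpGs and calls stayed within 1.5 times the count. Depth limits single sites most in liver of horse 2, with a median of 14 reads at these CpGs.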
